A study of Mus musculus with 12 samples.

Results

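The S100 genes encode small calcium-binding proteins, and 10 of them were followed here in whole liver after repeated carbon tetrachloride (CCl4): S100a1, S100a4, S100a6, S100a8, S100a9, S100a10, S100a11, S100a13, S100a16 and S100g. They were chosen by name from 36528 gene IDs in the table of read counts, with Ctps2 added because S100g lies inside its span. RNA-seq was done on livers of 6 mice injected with CCl4, a solvent that hepatocytes convert to a toxic radical and that scars the liver when given repeatedly, and of 6 mice injected with oil as the control. Injections were intraperitoneal, 3 times per week for 6 weeks in both groups, and the strain, sex and age of the mice are not given in the labels. Whole liver was used, so fewer cells of a type and less RNA per cell cannot be told apart.

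An S100 protein is built around a pair of EF-hands, loops that bind calcium, and usually works as a dimer that opens on binding calcium and grips a partner protein. S100a8 and S100a9 pair to form calprotectin, an abundant protein of neutrophils that binds zinc and manganese and acts as an alarm signal outside the cell. S100a10 has lost calcium binding and holds annexin A2 at membranes, and S100a4 is known as a marker of fibroblasts and of macrophages in injured tissue. S100g is calbindin-D9k, a calcium buffer best known from the intestine, where vitamin D induces it.

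Total counts per library ran from 53602695 to 69203292 in the CCl4 group and from 43027778 to 70375852 in the oil group. Values are CPM, counts per 1000000 after TMM scaling between libraries. Of 7 hepatocyte markers 3 fell, beside 18.4% of all tested genes. Apob fell by 0.69, Apoa2 by 0.65 and Serpinc1 by 0.34 on the log2 scale (edgeR adjusted p = 0.00161, 0.00917 and 0.0481). The other 4, Apoa1, Ttr, Alb and Fgb, were not called, at log2 fold changes of 0.38, -0.01, -0.02 and -0.27. All but Apob and Apoa2 are named here after their values were seen. Alb was at 77060 CPM in CCl4 livers and 78020 CPM in oil livers on average. Libraries differed in how far they favoured short transcripts. This was measured as the length slope, the slope of log2 CPM (as deviation from the mean of the gene) on log2 exonic length, which is negative where short transcripts are enriched. It ran from -0.31 to 0.13 in CCl4 livers and from -0.12 to 0.21 in oil livers, lowest in CCl4 replicate 6 and oil replicate 5. Its mean was -0.081 ± 0.172 in CCl4 livers and 0.081 ± 0.113 in oil livers (SD, n = 6 each). The slope comes from the same counts, and fits adjusted for it cannot fully part slope from treatment. S100 messages are short, with principal transcripts of 480 to 1127 bases, against a median exonic length of 4346 bases over the tested genes. Skeletal muscle transcripts (14 marker genes) summed to 452 CPM in CCl4 replicate 1 and 83.4 CPM in CCl4 replicate 3, and to between 1.17 and 2.39 CPM in the other 10 libraries.

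S100g, S100a4, S100a11, S100a6, S100a10 and S100a16 rose after CCl4, and S100a1, S100a13, S100a8 and S100a9 did not pass the test in either direction. All 10 genes passed the filter on low counts, S100g only through its level in CCl4 livers. Of the 10 genes 6 rose and 0 fell at an edgeR adjusted p of 0.05 over all genes, where 20.6% of the 16032 tested genes rose and 18.4% fell (39.0% in either direction). None had an unadjusted p under 0.05 and a fall, and DESeq2 and limma-voom also called 6 as risen and 0 as fallen. Adjusted for the length slope, 5 rose and 3 fell (S100a1, S100a8 and S100a13), and with the length trend removed 6 rose and 1 fell (S100a8). The median log2 fold change was 0.99 over the 10 genes and 0.01 over all tested genes. Every CCl4 liver lay above every oil liver for S100a4, S100a6, S100a10, S100a11 and S100g, a separation that 12% of tested genes showed, and no S100 gene had every CCl4 liver below every oil liver, as 8.03% of tested genes did. The rises ran from 1.81-fold for S100a16 to 117-fold for S100g. With upper-quartile scaling the median of all genes stood at 0.13, and the same 6 genes were called.

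**Figure D1:**
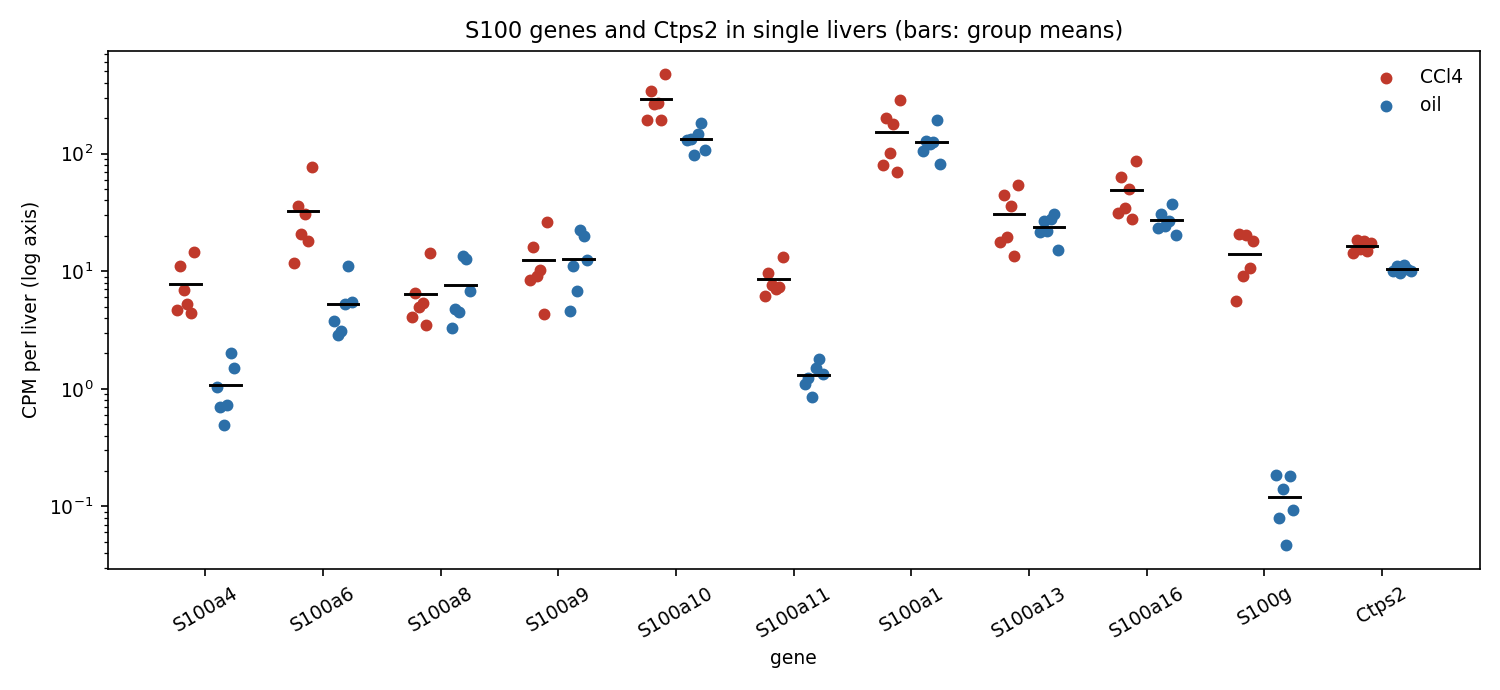
CPM of each S100 gene and of Ctps2 in single livers on a log axis, CCl4 (red) left of oil (blue), with points for livers and bars for group means (n = 6 each). S100g, S100a4, S100a6, S100a10, S100a11 and Ctps2 have every CCl4 liver above every oil liver, and the groups overlap for S100a1, S100a8, S100a9, S100a13 and S100a16.

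S100g (gene ID 12309, GRCm38 chromosome X, 162961992 to 162964599, minus strand) was nearly silent in oil livers and readily detected in every CCl4 liver. It was at 5.60, 20.9, 9.07, 20.4, 10.7 and 18.1 CPM in CCl4 replicates 1 to 6, against 0.184, 0.0798, 0.141, 0.0468, 0.182 and 0.0926 CPM in oil replicates 1 to 6. The lowest CCl4 liver, replicate 1, stood far above the highest oil liver. The oil values rest on 2 to 9 reads per library, 34 in all, and the CCl4 values on 355 to 1414 reads. The log2 fold change was 6.86 ± 0.43 (SE), 117-fold, with an edgeR adjusted p of 1.32e-07, and 7 of the 16032 tested genes had a larger one. Adjusted for the length slope it was 6.24.

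S100g lies within the 133 kb span of Ctps2, on the opposite strand, and the exons of both genes in GENCODE M21 share 0 bases. Ctps2 encodes a CTP synthase, which makes a nucleotide for RNA and phospholipids. It was at 14.4, 18.3, 15.6, 18.2, 14.9 and 17.3 CPM in CCl4 replicates 1 to 6, against 9.99, 11.2, 9.67, 11.2, 10.5 and 9.96 CPM in oil replicates 1 to 6. Ctps2 rose too, but by 1.58-fold (log2 fold change 0.66 ± 0.11 SE, edgeR adjusted p = 0.000311). The counts of S100g were 0.391 to 1.14 times those of Ctps2 in CCl4 livers and 0.00417 to 0.0184 times in oil livers. On the log2 scale this ratio, with 2 added to each count, was -0.36 ± 0.62 in CCl4 livers and -6.08 ± 0.61 in oil livers (SD, n = 6 each). The difference of 5.71 had an exact two-sided permutation p of 0.00216, the smallest that 6 against 6 livers allow (adjusted p = 0.00325 over 6 gene pairs). Across CCl4 livers S100g ran from 5.60 to 20.9 CPM and Ctps2 from 14.4 to 18.3 CPM. Both genes were lowest in CCl4 replicate 1 and highest in replicate 2, followed by replicates 4 and 6. Whether counting used strand is not given in the sources used here. Reads from unspliced Ctps2 over S100g could therefore not be told from S100g reads, and their part in the low S100g counts of the oil livers was not tested.

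The 250 bases before the start of S100g (RefSeq, GRCm38.p6, chrX:162964600-162964849, minus strand) are shown because this gene changed most among the 10. Capitals mark a match to a C/EBP motif (TTGCNNAA on either strand), which 9.56% of 32851 such windows held. The motif was also found before S100a9, which was not called as risen.
S100g: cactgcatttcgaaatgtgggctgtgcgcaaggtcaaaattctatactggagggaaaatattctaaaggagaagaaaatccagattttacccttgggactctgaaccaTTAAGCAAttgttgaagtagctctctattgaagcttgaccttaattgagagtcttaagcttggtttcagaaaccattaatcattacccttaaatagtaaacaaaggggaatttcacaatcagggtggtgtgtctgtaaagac

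Few genes of vitamin D action and calcium transport could be tested beside S100g. Of a list of 8 such genes 3 passed the filter on low counts and none was called, beside 39.0% of all tested genes. Cyp2r1, a vitamin D 25-hydroxylase, had a log2 fold change of -0.27 (edgeR adjusted p = 0.181). It was called as fallen after adjustment for the length slope and with the length trend removed, and ran from -0.53 to -0.15 over all fits. The calcium pump gene Atp2b1 had a log2 fold change of -0.24 (edgeR adjusted p = 0.291), and Gc, the vitamin D binding protein, one of 0.03 (edgeR adjusted p = 0.876). None had an unadjusted p under 0.05 in the edgeR fit without a covariate. DESeq2 called 0 of the 3 and limma-voom called 1 as fallen. Those below the filter are named here after their values were seen. The vitamin D receptor Vdr had 73 reads over the CCl4 livers and 22 over the oil livers. The calcium channel gene Trpv6 had 18 and 5, Cyp27b1 22 and 21, Cyp24a1 2 and 0, and Trpv5 0 and 0.

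S100a10 and S100a11, partners of annexins A2 and A1, lie 28.8 kb apart on chromosome 3 and both rose. S100a10 (gene ID 20194, 93555117 to 93564645) was at 193, 338.5, 263, 271.5, 195 and 473 CPM in CCl4 replicates 1 to 6. The oil livers held 131, 134, 97.4, 146, 181 and 108 CPM in replicates 1 to 6. Every CCl4 liver was above the highest oil liver, replicate 5, and CCl4 replicate 6 stood highest. Its log2 fold change was 1.12 ± 0.22 SE (2.17-fold, edgeR adjusted p = 0.00136).

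S100a11 (gene ID 20195, 93520496 to 93526288), a partner of annexin A1 in membrane repair, was at 6.17, 9.69, 7.71, 7.05, 7.29 and 13.1 CPM in CCl4 replicates 1 to 6. Oil replicates 1 to 6 were at 1.10, 1.24, 0.843, 1.498, 1.795 and 1.33 CPM. The groups were far apart, and CCl4 replicate 6 stood highest. Its log2 fold change was 2.71 ± 0.23 SE (6.54-fold, edgeR adjusted p = 1.11e-06). A pseudogene, S100a11-ps, took 12 reads in CCl4 replicate 6 and 0 in the other 11 libraries, and reads that S100a11 shares with this copy may have been split between them.

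The annexin partners moved by other amounts than their S100 genes. Anxa2, annexin A2, rose 10.6-fold to 211 ± 70.3 CPM in CCl4 livers, against 19.9 ± 3.98 CPM in oil livers (SD, n = 6 each; edgeR adjusted p = 2.02e-07). The counts of S100a10 were 1.02 to 1.55 times those of Anxa2 in CCl4 livers and 4.99 to 8.14 times in oil livers. The log2 ratio was 0.44 ± 0.22 in CCl4 livers and 2.73 ± 0.28 in oil livers (SD, n = 6 each), a difference of -2.29 (exact permutation p = 0.00216, adjusted p = 0.00325). Anxa1, annexin A1, rose 2.55-fold (edgeR adjusted p = 0.00365). The log2 ratio of S100a11 to Anxa1 was -1.20 ± 0.25 in CCl4 livers and -2.40 ± 0.52 in oil livers (SD, n = 6 each), a difference of 1.20 in the other direction (exact permutation p = 0.00216, adjusted p = 0.00325). S100a10 therefore rose less than Anxa2, and S100a11 rose more than Anxa1. The part of the length slope in these ratios was not tested.

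**Figure D2:**
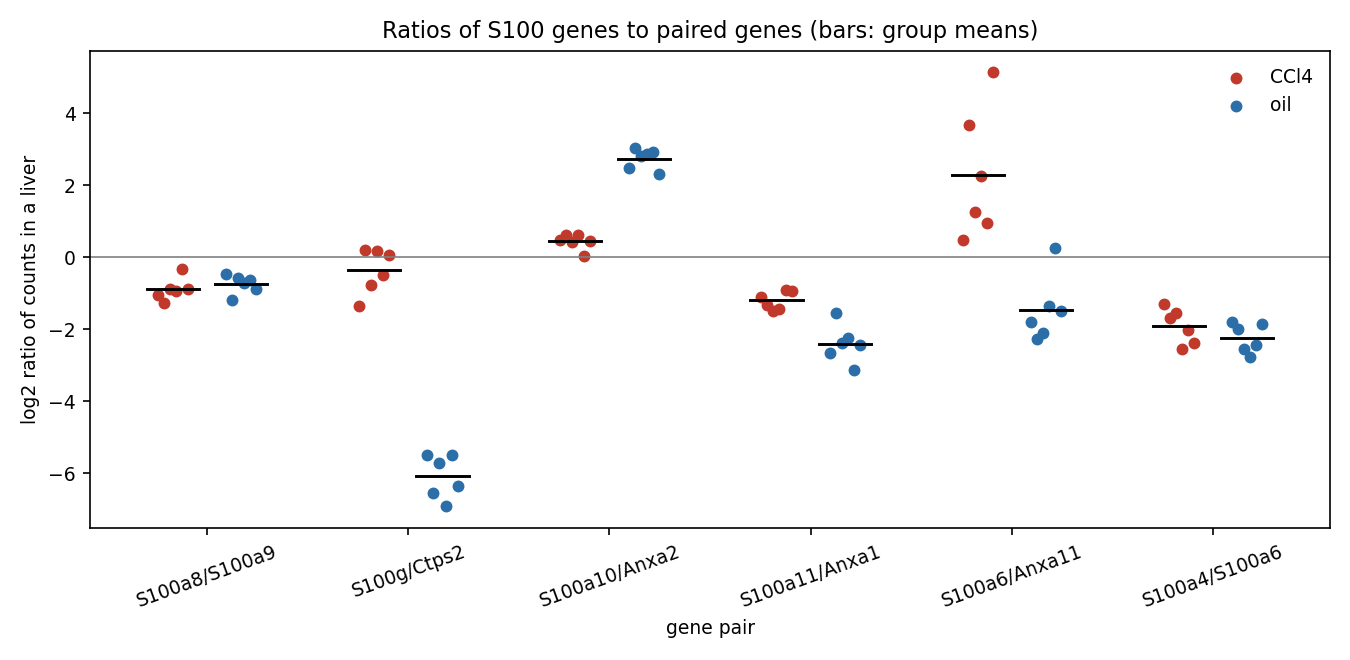
Log2 ratio of the counts of 6 gene pairs (2 added to each count) in single livers, CCl4 (red) left of oil (blue), with bars at the group means (n = 6 each). The groups do not overlap for S100g/Ctps2, S100a10/Anxa2, S100a11/Anxa1 and S100a6/Anxa11, and they overlap for S100a8/S100a9 and S100a4/S100a6.

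S100a4 and S100a6 lie 6.85 kb apart on chromosome 3, and both rose. S100a4 (gene ID 20198, 90603770 to 90606045), whose protein binds non-muscle myosin, was at 4.72, 11.1, 6.97, 5.27, 4.41 and 14.5 CPM in CCl4 replicates 1 to 6. It was at 1.04, 0.6985, 0.492, 0.726, 2.003 and 1.497 CPM in oil replicates 1 to 6. The groups did not overlap, and the highest livers were CCl4 replicate 6 and oil replicate 5. Its log2 fold change was 2.86 ± 0.39 SE (7.26-fold, edgeR adjusted p = 6.44e-05), and 2.23 adjusted for the length slope.

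S100a6 (gene ID 20200, 90612894 to 90614414), calcyclin, is a gene of dividing and fibroblast-like cells. It was at 11.7, 36.1, 20.6, 30.9, 18.1 and 76.4 CPM in CCl4 replicates 1 to 6, against 3.75, 2.89, 3.11, 5.24, 11.1 and 5.53 CPM in oil replicates 1 to 6. CCl4 replicate 1 stood only just above oil replicate 5, and the other CCl4 livers were clear of the oil group. Its log2 fold change was 2.62 ± 0.46 SE (6.13-fold, edgeR adjusted p = 0.00046), and 1.70 adjusted for the length slope.

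The log2 ratio of S100a4 to S100a6 was -1.92 ± 0.49 in CCl4 livers and -2.24 ± 0.40 in oil livers (SD, n = 6 each), which did not pass (exact permutation p = 0.238, adjusted p = 0.286). Anxa11, which encodes annexin A11, a partner of S100a6, fell 2.08-fold (edgeR adjusted p = 0.0171), and the log2 ratio of S100a6 to Anxa11 differed by 3.74 (exact permutation p = 0.00216, adjusted p = 0.00325). This ratio was the most spread among CCl4 livers, with counts of S100a6 at 1.398 times those of Anxa11 in replicate 1 and 35.7 times in replicate 6, the library richest in short transcripts.

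Markers of cells in which S100a4 and S100a6 are known were also compared between the groups. The counts stand beside 20.6% risen and 18.4% fallen of all tested genes. All 12 markers of myofibroblasts and fibroblasts rose, and their summed level was 858 to 1186 CPM in CCl4 livers and 209 to 348 CPM in oil livers. Col3a1 was 7.19-fold and Acta2, smooth muscle actin, 6.13-fold higher. Of 12 markers of monocytes and macrophages 11 rose, with sums of 453 to 656 CPM in CCl4 livers and 152 to 212 CPM in oil livers. Ccr2, the monocyte chemokine receptor, was 8.34-fold and Cd68 5.37-fold higher. Of 9 tested bile duct markers 5 rose, and of 7 markers of mesothelium, the surface layer of the liver, edgeR called 0, with 0 at an unadjusted p under 0.05, DESeq2 called 0 and limma-voom called 1 as fallen. Of 9 tested markers of T and NK cells 1 rose and 1 fell, and of 8 endothelial markers 2 rose and 1 fell. The part of these cells in the rise of the S100 genes was not tested.

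The sequences before the starts of S100a11, S100a4 and S100a6 (RefSeq, GRCm38.p6, plus strand) are shown because these genes on chromosome 3 rose 6.13-fold to 7.26-fold. They span chr3:93520246-93520495, chr3:90603520-90603769 and chr3:90612644-90612893. Capitals mark AP-1 motifs (TGANTCA) and a canonical E-box (CACGTG) before S100a11 and a TATA box (TATAAA) before S100a4.
S100a11: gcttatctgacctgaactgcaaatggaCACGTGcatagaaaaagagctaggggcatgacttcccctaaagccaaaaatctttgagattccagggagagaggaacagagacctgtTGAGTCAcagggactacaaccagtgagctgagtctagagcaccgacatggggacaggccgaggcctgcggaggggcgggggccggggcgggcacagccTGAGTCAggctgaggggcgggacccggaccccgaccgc
S100a4: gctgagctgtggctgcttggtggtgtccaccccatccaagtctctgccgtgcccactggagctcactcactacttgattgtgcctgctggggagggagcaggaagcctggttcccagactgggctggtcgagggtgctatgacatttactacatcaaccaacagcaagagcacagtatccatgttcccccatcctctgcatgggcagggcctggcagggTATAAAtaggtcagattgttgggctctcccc
S100a6: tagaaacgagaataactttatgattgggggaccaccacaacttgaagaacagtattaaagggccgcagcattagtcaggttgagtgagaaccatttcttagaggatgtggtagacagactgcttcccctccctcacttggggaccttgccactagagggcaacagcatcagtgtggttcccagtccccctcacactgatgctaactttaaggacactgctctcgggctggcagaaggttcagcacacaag
The AP-1 matches begin 136 and 38 bases before the start of S100a11, and the TATA match 31 bases before that of S100a4. On either strand 6.75% of 32851 windows held the AP-1 motif, 6.02% the E-box and 12.4% the TATA box. The search covered 6 motifs on both strands in 10 windows of 9 of the S100 genes, 2 of them of S100a16, with S100a10 not searched, and the motifs included TEAD (GGAATG, in 12.6% of all windows), with 0 matches, and PU.1 (GAGGAAG, in 10.6%), with 1 match, before S100a8. The AP-1 motif also matched in a window of S100a16, and the TATA box before S100a8, which was not called as risen. Each match is a description of letters in a window, and S100a6 held no match.

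S100a8 and S100a9, the calprotectin genes, overlapped between the groups. S100a8 (gene ID 20201, 90669071 to 90670034) was at 4.06, 6.57, 4.98, 5.31, 3.46 and 14.4 CPM in CCl4 replicates 1 to 6, against 3.30, 4.79, 4.47, 13.5, 12.8 and 6.73 CPM in oil replicates 1 to 6. S100a9 (gene ID 20202, 90692630 to 90695721) was at 8.40, 16.04, 9.18, 10.3, 4.36 and 26.3 CPM in CCl4 replicates 1 to 6, against 4.55, 11, 6.77, 22.2, 19.7 and 12.5 CPM in oil replicates 1 to 6. Both genes were highest in CCl4 replicate 6 within the CCl4 group and in oil replicates 4 and 5 within the oil group. The log2 fold change was -0.23 ± 0.40 SE for S100a8 (edgeR adjusted p = 0.667) and -0.04 ± 0.43 SE for S100a9 (edgeR adjusted p = 0.945). A p that misses the threshold does not show that the levels were equal. Adjusted for the length slope, S100a8 had a log2 fold change of -0.95 (edgeR adjusted p = 0.0417), and with the length trend removed one of -0.75 (edgeR adjusted p = 0.0491). S100a9 stood at -0.89 (edgeR adjusted p = 0.0881) and -0.63 (edgeR adjusted p = 0.103) in the same fits.

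The ratio of S100a8 to S100a9 overlapped between the groups. Counts of S100a8 were 0.410 to 0.793 times those of S100a9 in CCl4 livers and 0.436 to 0.727 times in oil livers, with a difference in the log2 ratio of -0.15 (exact permutation p = 0.39, adjusted p = 0.39). Neutrophil markers summed to 10.1 to 18.9 CPM in CCl4 livers and 7.73 to 19.2 CPM in oil livers. Of 14 markers 8 passed the filter and 2 of these rose, a share near the 20.6% of all tested genes, while 0 fell with edgeR (0 also at an unadjusted p under 0.05), 0 with DESeq2 and 1 with limma-voom. The genes that rose were Retnlg, at 2.45-fold (edgeR adjusted p = 0.00917), and the decoy receptor gene Il1r2, at 2.03-fold (edgeR adjusted p = 0.018). Retnlg did not pass after removal of the length trend (edgeR adjusted p = 0.0812), nor Il1r2 after adjustment for the length slope (edgeR adjusted p = 0.0694). The 6 tested markers that were not called, also named after their values were seen, went in both directions. Cxcr2, Csf3r and Mmp9 stood at log2 fold changes of -0.59, -0.47 and -0.03, and Elane, Mmp8 and Padi4 at 0.37, 0.2 and 0.18. The neutrophil markers below the filter are named here after their values were seen. The surface gene Ly6g had 17 reads over all CCl4 livers and 9 over all oil livers. Ngp had 208 and 27 reads over the CCl4 and oil livers, Camp 169 and 11, and Ltf 134 and 14. Mpo had 70 and 17, and Cd177 103 and 28. Among oil livers the neutrophil sum was highest in replicate 4, as were S100a8 and S100a9. Among CCl4 livers it was highest in replicate 1, whereas S100a8 and S100a9 were highest in replicate 6. The part of neutrophil numbers in these values was not tested.

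S100a1, S100a13 and S100a16 lie near each other at 1 end of the same cluster, and their levels followed the length slope of the libraries. S100a1 (gene ID 20193, 90511034 to 90514330) regulates calcium pumps and channels of heart and skeletal muscle. It was at 80.4, 200.1, 102, 178, 69.3 and 287 CPM in CCl4 replicates 1 to 6, against 106, 128, 120.4, 125, 192 and 81.7 CPM in oil replicates 1 to 6. Its log2 fold change was 0.28 ± 0.32 SE (edgeR adjusted p = 0.501), and the spread among CCl4 livers was wider than the difference of the means. CCl4 replicate 1, with the highest sum of muscle markers, was at 80.4 CPM, close to the lowest oil liver at 81.7 CPM. The part of muscle transcripts in the S100a1 values was not tested.

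S100a13 (gene ID 20196, 90514233 to 90524581) takes part in the release of Fgf1 and Il1a from cells. It ran from 13.5 to 54.0 CPM in CCl4 livers (median 27.8 CPM) and from 15.2 to 30.7 CPM in oil livers (median 24.4 CPM), with a log2 fold change of 0.37 ± 0.31 SE (edgeR adjusted p = 0.363). Its RefSeq span overlaps that of S100a1, on the opposite strand, by 98 bases, and their GENCODE exons share 0 bases. Its counts were 18.8% to 22.3% of those of S100a1 in CCl4 livers and 16% to 22.1% in oil livers.

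S100a16 (gene ID 67860, 90537254 to 90543151), a widely expressed member, was at 31.1, 62.8, 34.8, 50.4, 27.8 and 87.3 CPM in CCl4 replicates 1 to 6. It was at 23.5, 30.5, 24.02, 26.8, 37.5 and 20.4 CPM in oil replicates 1 to 6. CCl4 replicates 2, 4 and 6 stood above all oil livers, and the other 3 lay within the oil range. Its log2 fold change of 0.85 ± 0.27 SE passed (1.81-fold, edgeR adjusted p = 0.0205), but not without oil replicate 1 (edgeR adjusted p = 0.0507) and not after adjustment for the length slope (log2 fold change 0.21, edgeR adjusted p = 0.0841).

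Within the groups the same libraries stood high for most members. CCl4 replicate 6 held the highest level of 9 of the 10 genes among CCl4 livers, all but S100g, and oil replicate 5 the highest level of 7 of 10 among oil livers. These are the libraries with the lowest length slope of their group, at -0.31 and -0.12. CCl4 replicate 5, with the highest slope of its group (0.13), held the lowest level of 6 genes. S100a1, at 0.28 in the fit without a covariate, had a log2 fold change of -0.57 adjusted for the length slope (edgeR adjusted p = 0.000281), and S100a13 one of -0.46 (edgeR adjusted p = 0.0123). With the smooth length trend removed these were -0.26 (edgeR adjusted p = 0.138) and -0.18 (edgeR adjusted p = 0.319), past the threshold for neither gene. S100g, S100a4, S100a6, S100a10 and S100a11 were called as risen in every fit run, with log2 fold changes of 6.31, 2.30, 2.18, 0.72 and 2.25 after removal of the length trend.

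**Figure D3:**
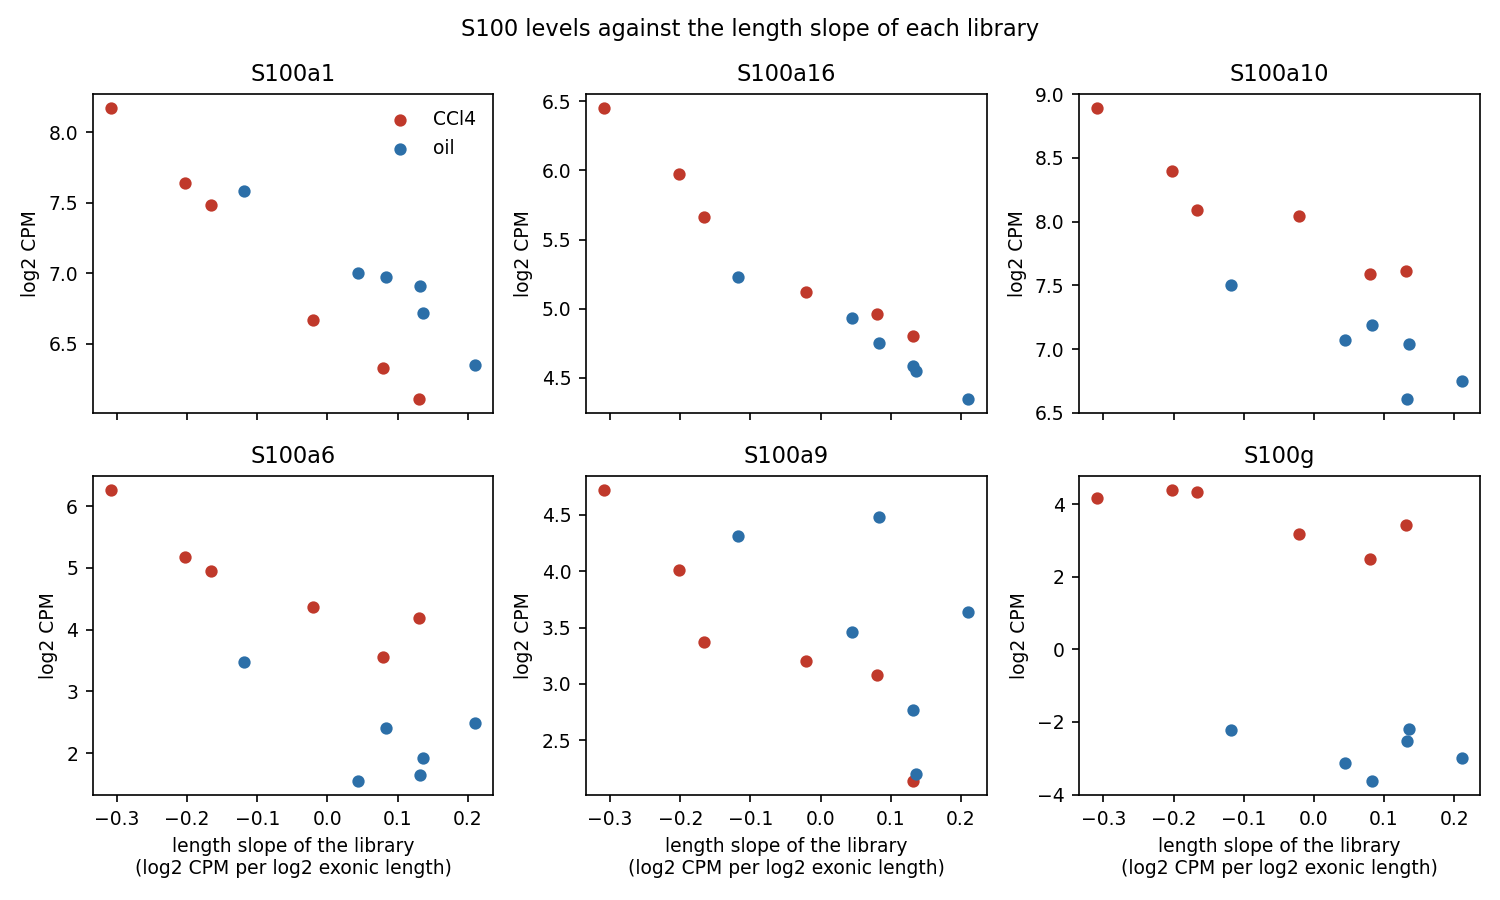
Log2 CPM of 6 S100 genes in single livers (CCl4 red, oil blue) against the length slope of the library, which is lower where short transcripts are enriched. S100a1 and S100a16 are highest in the CCl4 library with a slope of -0.31, whereas S100g is higher in every CCl4 liver than in any oil liver. The slopes of the groups overlap only in part.

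**Figure D4:**
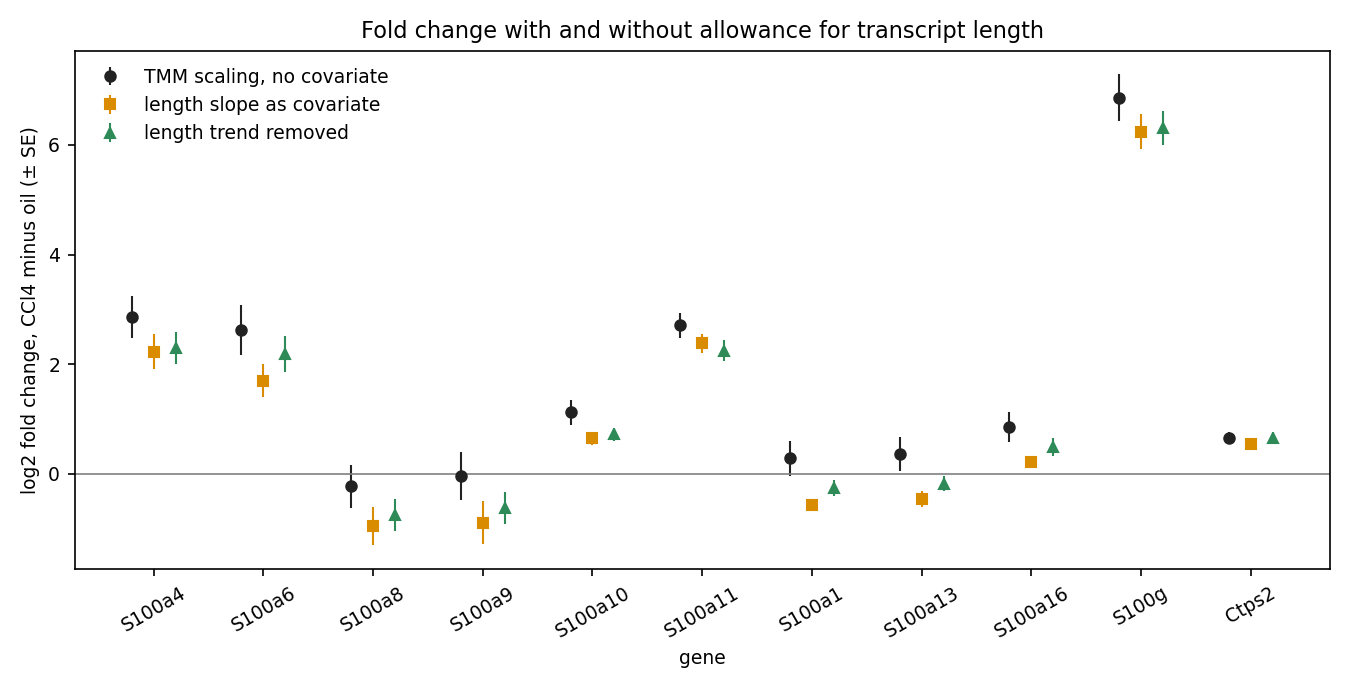
Log2 fold change, CCl4 minus oil, with its SE for each S100 gene and Ctps2 unadjusted, adjusted for the length slope and after removal of the length trend. S100g stays at 6.24 or more, and S100a1 and S100a13 lie above 0 in the fit without a covariate and below 0 in the other fits.

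Per length, as CPM per kb of the principal transcript, S100a10 and S100a1 led in both groups. S100a10 was at 422 ± 154 CPM per kb in CCl4 livers and 194 ± 43.2 CPM per kb in oil livers (SD, n = 6 each). S100a1 was at 226 ± 125 CPM per kb in CCl4 livers and 185 ± 54.3 CPM per kb in oil livers. In each group the ranges of S100a10 and S100a1 overlapped. In CCl4 livers S100a6, S100a16 and S100a13 followed at 44.2, 43.5 and 43.2 CPM per kb, then S100g at 29.4, S100a9 at 23.9, S100a11 at 16.7, S100a4 at 15.7 and S100a8 at 13.3 CPM per kb, and every neighbour in this order overlapped the next in its range over livers. In oil livers the order was S100a13 at 33.5, S100a9 at 24.6, S100a16 at 24.1, S100a8 at 15.6, S100a6 at 7.22, S100a11 at 2.54, S100a4 at 2.16 and S100g at 0.252 CPM per kb. There, the ranges of S100a1 and S100a13, of S100a6 and S100a11, and of S100a4 and S100g were apart, and the other neighbours overlapped. S100a1 and S100a10 made up 71.4% to 76.4% of the CPM of the 10 genes in CCl4 livers and 73.5% to 80.1% in oil livers.

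Of the genes that bind S100 proteins, 7 of 16 tested partners rose and 4 fell, beside 20.6% and 18.4% of all tested genes, with a median log2 fold change of 0.34, against 0.01 over all tested genes. Anxa2 is given above, and Plat, tissue plasminogen activator, which the complex of S100a10 and annexin A2 binds at the cell surface, rose to 7.97 ± 1.52 CPM in CCl4 livers, against 0.786 ± 0.355 CPM in oil livers (SD, n = 6 each; 10.1-fold, edgeR adjusted p = 1.66e-06). Fgf1, a growth factor released together with S100a13, fell 2.07-fold to 57.5 ± 6.28 CPM in CCl4 livers, against 119 ± 9.48 CPM in oil livers (SD, n = 6 each; edgeR adjusted p = 5.81e-06). The other genes that fell were Anxa11, Plg, which encodes plasminogen, and Atp2a2, a calcium pump gene, the last 2 chosen after their values were seen.

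Of 9 receptors and adaptors of S100 proteins 5 rose and 0 fell (0 also at an unadjusted p under 0.05, and 0 with DESeq2 and limma-voom), beside 20.6% and 18.4% of all tested genes, with a median log2 fold change of 0.84. Cd14, a co-receptor of Tlr4, rose 3.22-fold to 15.7 ± 4.13 CPM in CCl4 livers, against 4.87 ± 0.912 CPM in oil livers (SD, n = 6 each; edgeR adjusted p = 1.47e-05). Alcam rose 2.08-fold (edgeR adjusted p = 1.94e-05) and Mcam, which can bind calprotectin, 1.79-fold (edgeR adjusted p = 0.000189). Chosen after their values were seen, the other 2 were Tlr4, at a log2 fold change of 0.95 (edgeR adjusted p = 0.00442), and Ager, the receptor RAGE, at 1.21 (edgeR adjusted p = 0.0207) and 0.5003 CPM in CCl4 livers against 0.212 CPM in oil livers.

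Other EF-hand genes rose in 10 of 15 tested cases and fell in 1, beside 20.6% and 18.4% of all tested genes, with a median log2 fold change of 0.55. Rcn3 and Rcn1, calcium-binding proteins of the endoplasmic reticulum, rose 2.95-fold (edgeR adjusted p = 7e-07) and 2.09-fold (edgeR adjusted p = 1.27e-05), and Efhd2 rose 1.66-fold (edgeR adjusted p = 0.00019). Chp1, a calcineurin-like protein, was the gene that fell, by 0.76 on the log2 scale (edgeR adjusted p = 0.00157). Pvalb, parvalbumin of fast muscle, was below the filter and is named after its values were seen: it had 737 reads over the CCl4 livers and 3 over the oil livers. CCl4 replicates 1 and 3, the libraries with muscle transcripts, held 518 and 219 of these, and the other CCl4 livers 0.

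The remaining 8 S100 genes with a row in the table did not pass the filter on low counts. S100a3, which neighbours S100a4, had 92 reads over the CCl4 livers and 10 over the oil livers, of which CCl4 replicate 6 held 33 and oil replicate 6 held 8. S100a14 had 37 and 11 reads, S100b 27 and 16, S100a7a 1 and 4, and S100z 3 and 0 over the CCl4 and oil livers. S100a2, S100a5 and S100a7l2 had 0 reads in every library. S100b, a marker of glia, was thus hardly detectable at this depth.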

How the data were processed

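RNA-seq of whole liver was analysed from 6 CCl4 and 6 oil mice. Per the labels' protocols, RNA was purified with an RNeasy kit and libraries were made with a TruSeq stranded total RNA kit. The authors deposited raw read counts per gene as 1 table with a column per liver, which was used here. Per the submitters' processing notes the build was GRCm38. How reads were aligned and counted, with which annotation and whether by strand, is not given in the sources used here.

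Of 36528 gene IDs, 31049 took names from RefSeq (GRCm38.p6) and 78 from GENCODE M21. Lengths, known for 86.6% of tested genes, came from GENCODE M21. The filter was filterByExpr and the scaling TMM. Tests were run with edgeR 4.0.16 under R 4.3.3 (robust quasi-likelihood F test, Benjamini-Hochberg over 16032 genes, threshold 0.05). The SE is the log2 fold change divided by the square root of F. For log2 CPM the prior count was 2. The log2 count ratios of gene pairs were tested by exact permutation over the 924 splits of the livers, two-sided. Alternatives were other scalings and filters, DESeq2 1.42.0, limma-voom (limma 3.58.1), the length slope of a library as a model term, removal of a lowess length trend (span 0.3) and leaving out libraries. The scripts were tested on simulated counts. No pair of livers within a group (30 pairs) was alike within counting error, with 49.4 as the lowest chi-square per gene.

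The members, gene lists, pairs and alternatives were chosen with earlier results of these data known. Named were all members, Ctps2 and the other S100 genes, the genes of the pairs, up to 3 genes of each pathway list and 2 of each cell type list with the smallest p, the called gene of each pathway list that went against the majority, and the 2 genes nearest to each member across livers. Some named genes are not described further.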

Additional observations from a re-analysis of the deposited data

Results flagged for a closer look

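Among the 10 S100 genes and Ctps2, the highest and lowest liver of each group of 6 were compared with the other livers, 22 groups in all, of which chance flags about 1 in 20. S100a6 in oil replicate 5, at 11.1 CPM, stood apart from the other oil livers, where the next highest was 5.53 CPM; the gap took 0.681 of the range of the group. S100a8 in CCl4 replicate 6, at 14.4 CPM, stood apart from the other CCl4 livers, where the next highest was 6.57 CPM; the gap took 0.714 of the range. Both libraries had the lowest length slope of their group. The part of transcript length in these values was not tested.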

How the results depend on the processing

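No paired analysis was possible because the labels give no replicate numbers that groups share. Of the 10 S100 genes, 5 or 6 were called as risen under every alternative (5 without oil replicate 1 and after adjustment for the length slope). Adjusted for the length slope, 3 were called as fallen (S100a1, S100a8 and S100a13) and with the length trend removed 1 (S100a8), instead of 0. The list of other EF-hand genes had 2 fallen genes after adjustment for the slope, and the vitamin D list had 1 after it, 1 with the trend removed and 1 with limma-voom. Called genes over the whole table ranged from 2722 to 4394 risen and from 2022 to 4344 fallen, and 67.3% of calls were rises with upper-quartile scaling, against 52.8% with TMM. All 4 pair ratios that passed did so without any 1 liver (differences of 5.55 to 5.91 for S100g/Ctps2, -2.37 to -2.21 for S100a10/Anxa2, 1.05 to 1.37 for S100a11/Anxa1 and 3.17 to 4.11 for S100a6/Anxa11).

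Log2 fold changes that turned round belonged to genes that were not called in the fit without a covariate. Adjusted for the length slope, several of them were called as fallen. These were S100a1, S100a13, Mrpl14 and Ndufb9 (edgeR adjusted p = 0.000281, 0.0123, 4.32e-05 and 0.000279). Atp5k, Uqcrh and Ndufaf8 were too (edgeR adjusted p = 0.00183, 0.012 and 0.0168). S100a1 was at -0.57 adjusted for the length slope and -0.26 with the trend removed, and S100a13 at -0.46 and -0.18. S100a9 was at 0.01 with limma-voom, 0.08 with upper-quartile scaling and between -0.40 and 0.18 without any 1 liver, and S100a8 between -0.64 and 0.00. In the order slope adjustment, then trend removed, the other genes were Mrpl14 at -0.61 and -0.32, Ndufb9 at -0.57 and -0.28, Ndufaf8 at -0.39 and -0.11, Uqcrh at -0.38 and -0.02, Atp5k at -0.51 and -0.19, Atp2b1 at 0.09 and 0.04, and Gc at -0.03 and -0.23. Without single livers Mrpl14 ran from -0.09 to 0.32, Ndufb9 from -0.05 to 0.34 and Gc from -0.05 to 0.06. The cause was not tested. Depth limits S100g in oil livers, where single reads move its CPM, and the S100 genes below the filter.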

Other observations

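Genes whose levels over the 12 livers lay nearest to those of each S100 gene were ranked by the root mean square difference of log2 CPM, each centred on its mean. S100a8 and S100a9 were nearest to each other, at a difference of 0.274. S100g was nearest to Ly6d (0.672), a surface gene of B cell precursors and keratinocytes, which was at 165 ± 79.5 CPM in CCl4 livers and 1.81 ± 1.55 CPM in oil livers (SD, n = 6 each), and next to Mmp12 (0.776), macrophage elastase, at 86.8 ± 26.3 CPM in CCl4 livers and 2.09 ± 1.38 CPM in oil livers. S100a6 was nearest to Crip1 (0.311), a LIM domain gene that rose 4.21-fold. S100a4 was nearest to Snhg18 (0.371), a host gene of small nucleolar RNA, and then to Pkib (0.375), and Pkib, an inhibitor of protein kinase A, was also second for S100a11 (0.225). S100a10 was nearest to Casp12 (0.0953) and S100a16 to Vamp5 (0.0857).

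The genes nearest to S100a1 were Mrpl14 (0.0659) and Ndufb9 (0.0708), and those nearest to S100a13 were Uqcrh (0.103) and Atp5k (0.115). These encode small proteins of the mitochondrial ribosome and respiratory chain. None of the 4 was called in the fit without a covariate, with log2 fold changes of 0.17, 0.19, 0.42 and 0.39. All 4 were called as fallen after adjustment for the length slope.

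Of the neutrophil granule genes below the filter on low counts, chosen after their values were seen, Ngp had 208 reads over the CCl4 livers and 27 over the oil livers, and Camp had 169 and 11. Neutrophil markers that passed the filter went in both directions, as given above.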
